A study of Mus musculus with 3 samples.

Results

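The genes described here were 10 genes of the major histocompatibility complex (MHC) class I and class II pathways, chosen by name from 32546 annotated genes. The class I set held the heavy chain genes H2-K1 and H2-D1, the light chain gene B2m, the peptide transporter gene Tap1 and the transactivator gene Nlrc5. The class II set held the chain genes H2-Aa, H2-Ab1 and H2-Eb1, the invariant chain gene Cd74 and the transactivator gene Ciita. They were measured in LT-HSCs (long-term hematopoietic stem cells, which can rebuild blood formation for a long time after transplantation) of wild-type female C57BL/6 mice aged 24 months. They were sorted from c-Kit-enriched bone marrow by a gate on lineage markers, CD34, CD48, CD150, c-Kit and Sca-1. The assay was DOGMA-seq, in which ATAC (open chromatin), RNA and antibody-derived tags are read in the same cell. The 3 libraries came from 1 pool of cells, so there was no replicate and no test between groups of cells. RNA counts of genes were not analysed here, and every level below is a level of chromatin accessibility, not of RNA or protein.

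Class I molecules carry peptides from inside the cell to the surface of almost all nucleated cells, where CD8 T cells read them. TAP moves these peptides into the endoplasmic reticulum, B2m pairs with the heavy chain, and NLRC5 raises transcription of the class I genes. Class II molecules present peptides taken up from outside to CD4 T cells and are best known on B cells, dendritic cells and macrophages. Their chains travel with the invariant chain CD74, and CIITA is required for their expression. Neither transactivator binds DNA by itself: both act on a promoter module of X and Y boxes that is bound by RFX, CREB or ATF1, and NF-Y. CD274 (PD-L1), the protein with most tags in the antibody panel, restrains T cells that meet peptide on MHC molecules.

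The members' proximal promoters are shown first because the X and Y boxes are what the classes share. RefSeq promoter windows of 300 bp (build GRCm38.p6, 250 bp before the start) were at hand for 6 of the 10 genes, namely H2-K1, H2-D1, B2m, Tap1, H2-Aa and H2-Eb1. No window was at hand for Nlrc5, Ciita, H2-Ab1 and Cd74. Motifs were searched on both strands: CCAAT (the Y box, bound by NF-Y), TGACG (the core of the X2 box, bound by CREB or ATF1), GAAANNGAA (the core of an interferon-stimulated response element) and GGGANTTCC (an NF-kappa B site). Windows of H2-K1 (chr17:34000298-34000597, minus strand), H2-D1 (chr17:35262844-35263143, plus strand), B2m (chr2:122147437-122147736, plus strand) and H2-Aa (chr17:34287774-34288073, minus strand) are printed 5′ to 3′ along the gene, with matches to these motifs in capitals.
H2-K1: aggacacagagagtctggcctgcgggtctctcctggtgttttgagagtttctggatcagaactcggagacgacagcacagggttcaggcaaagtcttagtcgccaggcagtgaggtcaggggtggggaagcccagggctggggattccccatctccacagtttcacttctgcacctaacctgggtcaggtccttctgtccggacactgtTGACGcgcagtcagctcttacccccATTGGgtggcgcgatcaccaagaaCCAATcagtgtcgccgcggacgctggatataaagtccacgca
H2-D1: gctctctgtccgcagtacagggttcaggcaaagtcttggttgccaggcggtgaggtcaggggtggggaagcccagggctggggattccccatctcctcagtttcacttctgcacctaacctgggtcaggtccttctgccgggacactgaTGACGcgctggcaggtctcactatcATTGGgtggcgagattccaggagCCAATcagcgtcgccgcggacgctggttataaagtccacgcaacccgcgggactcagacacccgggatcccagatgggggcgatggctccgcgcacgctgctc
B2m: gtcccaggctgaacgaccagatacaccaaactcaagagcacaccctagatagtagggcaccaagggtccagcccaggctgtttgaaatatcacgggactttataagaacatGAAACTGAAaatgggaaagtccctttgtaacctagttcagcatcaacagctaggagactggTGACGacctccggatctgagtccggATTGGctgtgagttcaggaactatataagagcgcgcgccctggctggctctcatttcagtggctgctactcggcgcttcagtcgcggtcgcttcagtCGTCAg
H2-Aa: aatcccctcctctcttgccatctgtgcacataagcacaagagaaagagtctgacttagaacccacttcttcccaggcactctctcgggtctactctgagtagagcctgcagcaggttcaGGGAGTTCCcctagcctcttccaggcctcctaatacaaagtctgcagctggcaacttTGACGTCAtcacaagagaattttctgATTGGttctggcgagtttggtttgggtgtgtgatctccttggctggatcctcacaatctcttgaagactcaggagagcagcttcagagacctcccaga

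CCAAT was found in all 6 windows and in 37.4% of the 32851 windows of the whole table. TGACG was found in 5 of 6 windows and in 20.8% of all windows, and the exception was H2-Eb1, which held CCAAT at 2 positions. In H2-K1, H2-D1 and B2m the first base of a CCAAT match followed the first base of a TGACG match by the same distance, 25 bp. This spacing, taken from these genes after the positions were seen, occurred in 36 of 32851 windows (0.110%), theirs included. That share is therefore no test of the spacing, and the H2-K1 and H2-D1 windows are much alike in sequence. In H2-Aa a pair of overlapping TGACG matches, which together spell TGACGTCA, lay 26 and 23 bp before CCAAT. Tap1 held both motifs, but its CCAAT match lay upstream of its TGACG match. GAAANNGAA occurred in the B2m window alone among the 6, at base -139 from the start, against 8.56% of all windows. The H2-K1 and H2-D1 windows both hold agtttcacttct, which this pattern does not match. GGGANTTCC occurred in the H2-Aa window alone, against 1.68% of all windows. The H2-K1 and H2-D1 windows both hold ggggattccc, which this pattern does not match. Each pattern is 1 strict form, so a window without a match is not shown to lack such an element. A match describes the letters only, and no binding was measured.

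Levels were measured in the 3629 cells with at least 10 antibody tags, of 3724 with antibody counts and 4369 called cells. These cells held 38498362 nuclear fragments, with a median of 10287 per cell (3853 to 45069). A promoter was the gene start with 1 kb on each side, and a gene window was the gene body with 2 kb upstream. Levels are FPKM, fragments per kb of window per 1000000 nuclear fragments, and all intervals are exact 95% intervals that cover counting error only. A promoter was called open at 5 times the genome mean of 28.3 fragments or more. Of 8 HSC marker promoters, each at 1 annotated gene start, 6 were open (Mllt3, Kit, Hlf, Fgd5, Procr and Slamf1). Those of Ly6a and Mecom were below this threshold. Over all protein-coding promoters 61.7% were open, and their median of 4.96 FPKM was near the 4.98 of the HSC markers.

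Of the 10 members 9 had an open promoter at the gene start used, and Ciita was the exception. At its annotated start with most fragments Ciita had 221, above the 141.3 that make a promoter open. Over all annotated genes 50.2% of promoters were open, and over protein-coding genes 61.7%. The class I promoters of H2-K1, Tap1, H2-D1 and B2m were the 4 highest of the 10. H2-K1 had 2092 promoter fragments, a level of 27.2 FPKM (26.01 to 28.4), above 92.5% of protein-coding promoters. H2-D1, the other classical heavy chain of this strain, had 1766 fragments and a level of 22.9 (21.9 to 24.0). Of the 50-base stretches in the H2-K1 and H2-D1 promoters, 88.7% and 96.7% occurred once in the genome. The annotated H2-D1 start lies 364 bp upstream of the RefSeq start, and the 100 bp bin with most insertions (852) was centred 250 bp downstream of the former.

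Tap1, which encodes a subunit of the peptide transporter, had 1848 fragments and a level of 24.0 (22.9 to 25.1). Its start lies beside that of the immunoproteasome gene Psmb9, so that the fragments of both promoters cannot be told apart. B2m had 1373 fragments and a level of 17.8 (16.9 to 18.8). The interval of the ratio of Tap1 over H2-D1 included 0 on the log2 scale (0.07, -0.03 to 0.16), whereas H2-K1 over Tap1 (0.18, 0.09 to 0.27) and H2-D1 over B2m (0.36, 0.26 to 0.47) left it out. Thus Tap1 and H2-D1 were not separated by counting error, and the other neighbours among these 4 genes were.

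The 4 class II structural promoters were open at lower levels. Cd74 had 1168 promoter fragments (15.2 FPKM, 14.3 to 16.1) and H2-Eb1 had 1134 (14.7, 13.9 to 15.6). The start region of H2-Eb1 also holds a start of the gene Gm20513. H2-Eb1 encodes the beta chain of I-E, a molecule that C57BL/6 mice do not make because its alpha chain gene is defective. H2-Aa and H2-Ab1, the alpha and beta chains of I-A, had 826 and 732 promoter fragments, at levels of 10.7 (10.0 to 11.5) and 9.50 (8.83 to 10.2). Cd74 and H2-Eb1 were not separated (log2 ratio 0.04, -0.08 to 0.16), and every class I structural gene was above every class II one. The nearest pair across the classes was B2m over Cd74, at a log2 ratio of 0.23 (0.12 to 0.35).

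The transactivators stood lowest. Nlrc5 had 617 promoter fragments, a level of 8.01 FPKM (7.39 to 8.67), and it shares its start region with the gene 9330175E14Rik. Ciita had 17 fragments at its first annotated start, a level of 0.221 (0.129 to 0.353), which was 0.602 times the genome mean for a window of that size. At these starts Nlrc5 exceeded Ciita by 5.14 on the log2 scale (4.49 to 5.97). The gap depended on the start, since at the annotated start with most fragments Nlrc5 had 619 and Ciita 221. For comparison, the median level of 12 genes of other tissues, such as Alb and Ins2, was 0.0844, with 1 of 12 open, and that of 10 housekeeping genes was 29.7, with all 10 open.

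**Figure D1:**
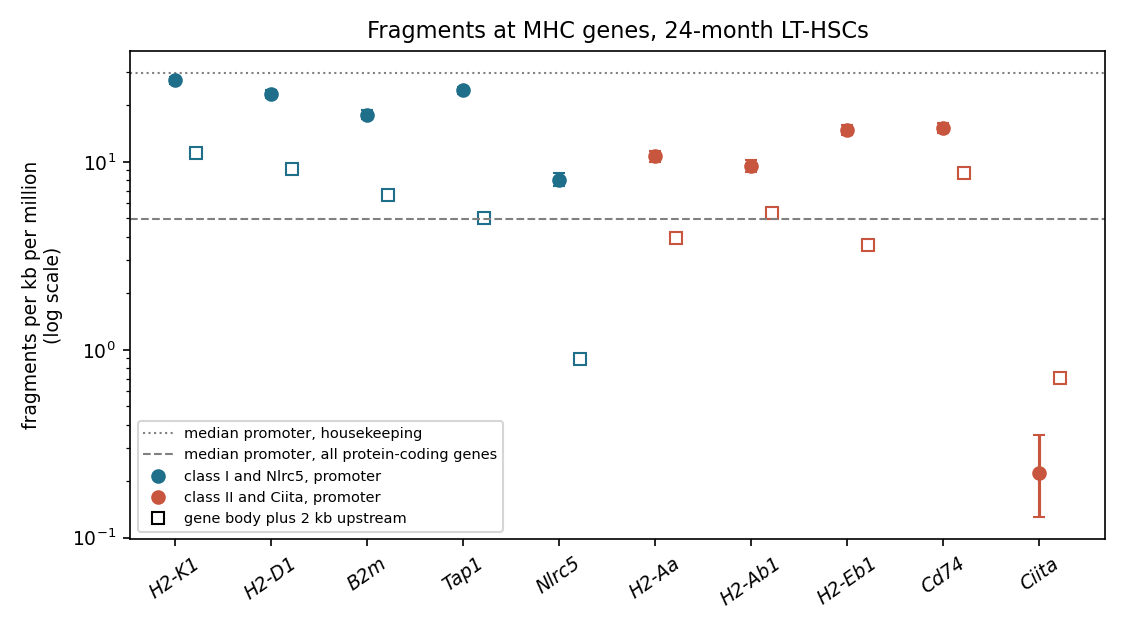
FPKM (log axis) at the 10 genes. Circles are promoters with exact 95% counting intervals, open squares are gene windows, and lines mark the median promoter of the housekeeping list and of all protein-coding genes. The 4 class I structural promoters lie above the 4 class II ones, and Ciita, at its first annotated start, lies far below.

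Summed over 4 structural genes each, class I promoters held 7079 fragments (22.97 FPKM, 22.4 to 23.5) and class II promoters 3860 (12.5, 12.1 to 12.9). The ratio was 1.83-fold (1.76 to 1.91). Over whole gene windows per kb the ratio was smaller, 1.38-fold. Cd74 (8.68 FPKM) and H2-Ab1 (5.31) were high on the gene window scale, where Cd74 exceeded B2m (6.65) and H2-Ab1 exceeded Tap1 (5.04). At H2-K1 and H2-D1 the gene window levels were 11.1 and 9.17. Promoters held 77.3% of the window fragments of H2-K1 and 81.6% of those of Tap1, but 32.3% of those of Cd74, 26.1% of those of H2-Ab1 and 1.24% of those of Ciita.

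At least 1 class I promoter fragment was seen in 2982 of 3629 cells (82.2%, 80.9 to 83.4) and at least 1 class II promoter fragment in 2246 cells (61.9%, 60.3 to 63.5). By gene, the share of cells ran from 41.2% for H2-K1 to 17.2% for H2-Ab1 among the structural genes, with 14.3% for Nlrc5 and 0.468% for Ciita. The most class II promoter fragments in a cell was 9. Cells with no class II promoter fragment had a median of 9814 nuclear fragments, and those with 4 or more had 11952. The class II signal was thus spread over more than 1 in 2 cells, and the number per cell moved with depth.

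The insertions around each start showed where this accessibility lay. At H2-K1, H2-D1, B2m, Tap1, Nlrc5, H2-Aa, H2-Ab1 and H2-Eb1 the 500 bp stretch with most insertions held an annotated start of the gene. At H2-Ab1 a stretch 5549 bp into the gene, at a further annotated start, held 1096 insertions against 1134 at the first start, and one in an intron at 3999 bp held 902. H2-Eb1 had a stretch of 897 insertions centred 851 bp upstream of its start, against 990 at the start. At Cd74 an intron stretch 1949 bp into the gene held 1374 insertions, against 1347 at the start. H2-Ab1, H2-Eb1 and Cd74 thus had strong stretches away from the first start, while the next stretch of H2-Aa held 28.6% of the insertions of its strongest one. The next stretch of H2-K1, H2-D1, B2m and Tap1 held at most 23.6%, and at Nlrc5 a pair of intron stretches held 54.5% each.

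**Figure D2:**
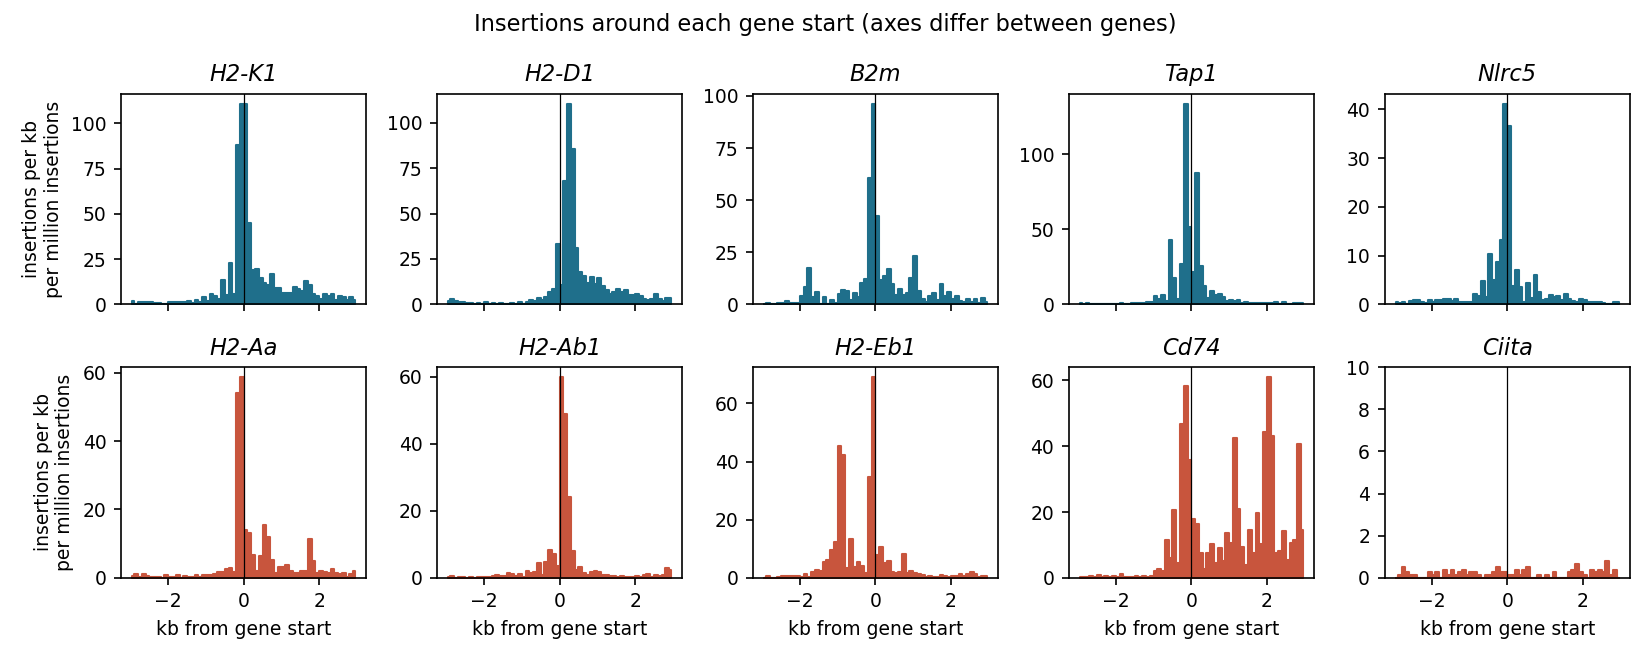
Transposase insertions per kb per 1000000 insertions by distance from the gene start, from 3 kb before to 3 kb after, in bins of 100 bp along the direction of transcription. The vertical axis differs between genes. H2-K1, B2m, Nlrc5, H2-Aa and H2-Ab1 are highest next to the start, H2-D1 is highest 250 bp downstream of it, Tap1 has a peak on each side of it, and Cd74 and H2-Eb1 have further peaks away from it.

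Ciita was open at other positions than its first start. This gene is known for several promoters that are used in different cell types. Within 500 bp of its annotated starts there were 12 fragments at the first (0.849 times the genome mean), 23 at the one 8119 bp downstream (1.63 times) and 188 at the one 9687 bp downstream (13.3 times, in 4.82% of cells). The strongest stretch of the gene lay in an intron, centred 41299 bp from the first start, with 531 insertions. A further intron stretch, at 42949 bp, held 272. Lower peaks, of 53 and 87 insertions in their highest 250 bp bin, lay 21875 and 45125 bp from the first start. The highest signal of Ciita thus lay in that intron, and the whole gene window had 0.707 FPKM (0.670 to 0.745), higher than 46.4% of protein-coding genes.

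**Figure D3:**
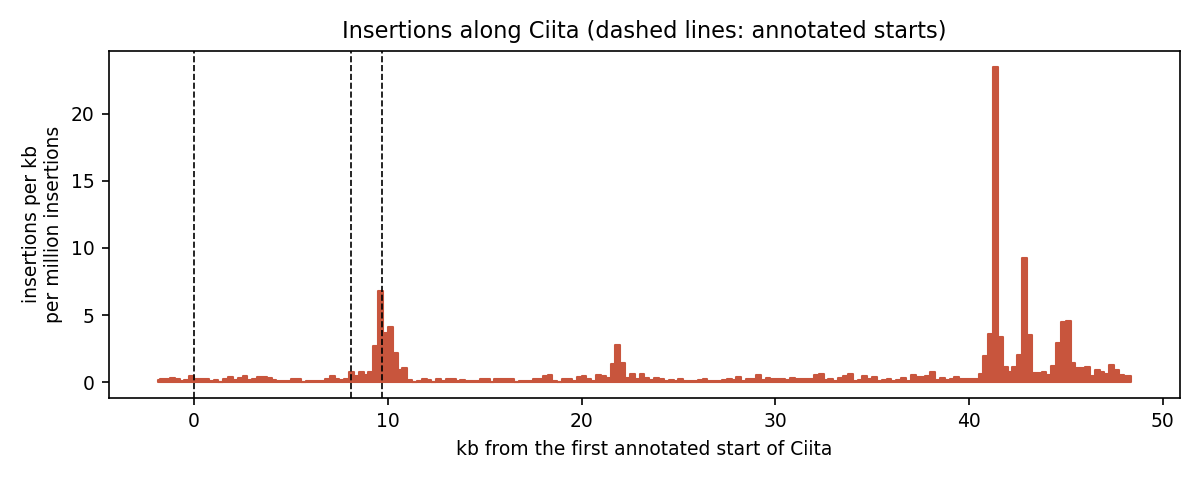
Insertions per kb per 1000000 insertions along Ciita by distance from its first annotated start, in bins of 250 bp. Dashed lines mark the 3 annotated starts. The first start has little signal, the third has a peak, and the highest peak lies in an intron about 41 kb downstream.

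Fragment length differed between the members. Fragments under 150 bp, the length class of DNA free of nucleosomes, made up 43.5% of fragments over open protein-coding promoters. The share was 51.3% (49.1 to 53.5) at H2-K1 and 52.1% (48.4 to 55.7) at H2-Ab1, and 35.1% (32.9 to 37.3) at Tap1 and 39.1% (36.3 to 42.0) at Cd74. High and low shares were thus found in both classes.

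The other genes of each pathway were read from lists. Of 20 further class I pathway genes, all 20 had an open promoter, with a median of 17.1 FPKM. The highest were Psme2 (41.8), a proteasome activator subunit, and the chaperones Calr (41.4) and Pdia3 (30.8), and the lowest were H2-Q10 (4.73), Tapbpl (7.05) and H2-T23 (7.78). Of 14 further class II pathway genes 9 were open, with a median of 2.91. The highest were H2-DMa (37.3), a chain of the molecule that loads peptides onto class II, the protease gene Ctsl (12.8) and H2-DMb1 (8.10). The lowest were Marchf1, a ubiquitin ligase for class II, with no fragment at the annotated gene start used, Cd80 (0.338) and H2-Ea-ps (0.610). H2-Ea-ps is the defective I-E alpha chain gene, and other starts of Marchf1 were not counted. The median of all protein-coding promoters was 4.96.

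The factors that bind the X and Y boxes were open at 7 of 8 genes, with a median of 29.2 FPKM. The highest were Nfya (57.0), Creb1 (39.3) and Atf1 (35.8), while Nfyc had 0.156 at the annotated gene start used, and Rfxap (18.8) and Rfxank (27.04) were next lowest. All 12 genes of interferon signalling were open, with a median of 20.8, led by Socs1 (40.7), Ifnar1 (29.2) and Ifngr1 (28.7), with Ifnar2 (8.26), Ifngr2 (10.2) and Irf9 (15.03) the lowest. These lists are described by their counts only.

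Promoters that mark other blood cells gave the background for the class II signal. Of 7 B cell markers 2 were open, with 2 fragments at Ms4a1. Of 7 dendritic cell markers 3 were open (Zbtb46, Flt3 and Batf3), with 8 fragments at Siglech and 9 at Xcr1. Of 7 macrophage and monocyte markers 3 were open, and of 7 T cell markers 2. Of 6 megakaryocyte markers 5 were open, and of 5 erythroid markers 3, beside 61.7% of all protein-coding promoters. The 381 cells with 3 or more class II promoter fragments were set beside the 1383 with none. Class I promoters had a log2 ratio of -0.01 (-0.13 to 0.10) there, B cell promoters -0.07 (-0.39 to 0.23), dendritic cell promoters 0.14 (-0.06 to 0.34) and macrophage promoters -0.19 (-0.46 to 0.06). Megakaryocyte promoters had 0.22 (0.04 to 0.39), and megakaryocyte gene windows 0.04 (-0.03 to 0.11). The intervals for B cell, dendritic cell and macrophage promoters included 0. Cells rich in class II fragments were deeper, with a median of 11380 nuclear fragments against 9814. These ratios cannot show whether other blood cells were present. Zbtb46, Flt3 and Batf3, open over all cells, held 912, 744 and 419 of the 2201 dendritic cell promoter fragments. The B cell and macrophage sums also included open promoters, and Ms4a1, Siglech and Xcr1 had too few fragments to compare.

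CD274 was the antigen with most tags, a mean of 21.3 per cell (21.1 to 21.4). The paper mixed strongly staining antibodies with their unconjugated forms, so tag numbers do not rank the antigens by amount. High cells had at least 27 tags (937 cells) and low cells at most 12 (877 cells), and the groups had medians of 10296 and 10472 nuclear fragments and of 46 and 17 tags in all. Over class II gene windows the level was 5.70 FPKM in high and 5.07 in low cells, a log2 ratio of 0.17 (0.09 to 0.25). Over class I gene windows it was 7.52 and 7.37, a log2 ratio of 0.03 (-0.05 to 0.11). The class II ratio exceeded the class I ratio by 0.14 on the log2 scale (0.02 to 0.26). Along 4 bins of rising CD274 tags the class II level was 5.07, 5.38, 5.52 and 5.70, and the class I level was 7.37, 7.55, 7.44 and 7.52. Among the 363 cells with at least 50 tags, split again, the class II ratio was -0.09 (-0.33 to 0.15), with the other sign. CD274 gave 77229 of all 114345 tags, and the CD274-low cells above had a median of 17 tags in all. The low cells of that further split were thus another group than the CD274-low cells above. Over class II promoters alone, with the groups above, the ratio was 0.11 (-0.02 to 0.24).

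**Figure D4:**
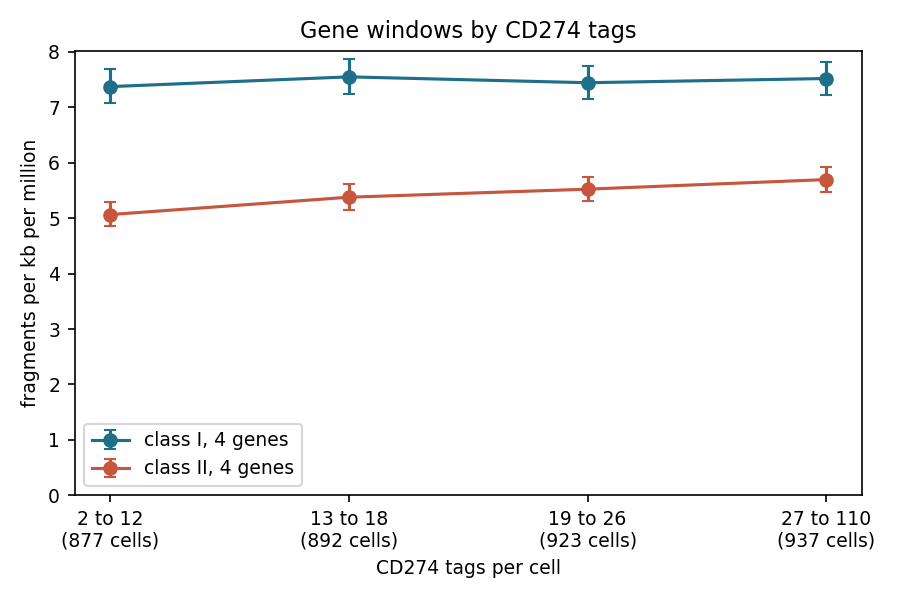
FPKM over the gene windows of 4 class I and 4 class II structural genes, in 4 bins of cells by CD274 tags, with exact 95% counting intervals. Class II rises from 5.07 to 5.70 over the bins, and class I stays between 7.37 and 7.55.

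Cd74 and H2-Ab1 were the 2 of 10 members whose interval left out 0, beside 14.3% of all genes with at least 200 fragments over both groups, so that the number of members was near that of genes at large. Cd74 had 1058 fragments in CD274-high and 807 in CD274-low cells, 9.47 and 7.99 FPKM, a log2 ratio of 0.25 (0.11 to 0.38). The Cd74 interval included 0 with cells thinned to 6000 fragments (0.17, -0.01 to 0.36) and with at least 50 tags (0.08, -0.30 to 0.48). H2-Ab1 had 792 and 626 fragments, 5.58 and 4.88 FPKM, a log2 ratio of 0.19 (0.04 to 0.35). The H2-Ab1 interval included 0 with the promoter alone, with cells split at the median (0.07, -0.03 to 0.18), with the highest and lowest 10% of cells (0.25, -0.004 to 0.50) and with at least 50 tags (-0.02, -0.46 to 0.42). H2-Aa (0.13, -0.12 to 0.39) and H2-Eb1 (-0.01, -0.20 to 0.18) had intervals that included 0. For H2-D1 the ratio was 0.14 (-0.02 to 0.30) and for B2m 0.14 (-0.05 to 0.33), while H2-K1 was at -0.11 (-0.26 to 0.04) and Tap1 at -0.01 (-0.18 to 0.16). The transactivator genes Nlrc5 (0.01, -0.13 to 0.16) and Ciita (0.06, -0.15 to 0.28) also had intervals that included 0.

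The Cd74 difference was found both at the promoter (0.31, 0.07 to 0.54) and in the rest of the window (0.22, 0.05 to 0.38). At H2-Ab1 the rest of the window gave 0.23 (0.06 to 0.41) and the promoter 0.08 (-0.23 to 0.39). No member differed 1.2-fold or more in either direction, beside 9.02% of the 18153 genes with at least 200 fragments over both groups, a share at which 0 of 10 is no result about the members. Cd74 was closest, at 1.19-fold, and 1 member passed in 7 of 10 alternatives, for which the share of all genes was not computed. The median log2 ratio was 0.10 over the 10 members and 0.00 over all these genes. The Cd274 gene itself had a ratio of 0.15 (-0.08 to 0.37).

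The other 11 antibodies were read in the same way. For CD61 (integrin beta 3) the class II ratio was -0.10 (-0.20 to -0.01) and the class I ratio -0.02 (-0.12 to 0.07). For CD357 (GITR) the class II ratio was 0.09 (0.01 to 0.16) and the class I ratio 0.03 (-0.05 to 0.11). Over promoters alone both class II intervals included 0, at -0.10 (-0.25 to 0.04) for CD61 and 0.04 (-0.08 to 0.16) for CD357, and with the antibody counts taken as residuals on the other antibodies that of CD357 did too (0.05, -0.04 to 0.13). On the scale of tag counts the class I and class II intervals of the other 9 antibodies included 0. On the residual scale the class II intervals of CD68, CD163, CD183, CD206 and P2X7R left out 0 below it, but of the high cells of the first 4 of these 8.13% to 29.7% carried a tag of the antibody, and in all 5 the low cells had more CD274 tags, so that these are not values by the named antibody alone.

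Single members were apart from 0 in 8 of 110 ratios of these 11 antibodies. H2-D1 was higher in CD27-high cells, with 608 fragments in high and 923 in low cells, 9.79 and 8.27 FPKM, a log2 ratio of 0.24 (0.09 to 0.39). In CD357-high cells Cd74 had 0.17 (0.05 to 0.30) and H2-D1 0.17 (0.01 to 0.32). Nlrc5 had 0.15 (0.04 to 0.26) by CD201 and -0.14 (-0.25 to -0.02) by CD106. The others were H2-K1 by P2X7R at -0.11 (-0.23 to -0.0007), H2-Ab1 by CD68 at -0.21 (-0.43 to -0.0004) and Tap1 by CD206 at 0.40 (0.01 to 0.74). Over all genes with at least 200 fragments the share whose interval left out 0 was 8.95% for CD61, 8.22% for CD357, 6.96% for CD27, 7.75% for P2X7R, 7.06% for MERTK, 6.43% for CD68, 6.44% for CD106, 5.48% for CD163, 5.84% for CD183, 7.62% for CD201 and 5.61% for CD206. The members were thus close to the genes at large.

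CD68, CD106, CD163, CD183, CD201 and CD206 had a mean under 0.5 tags per cell, so that their groups are cells with and without a tag. The same held for P2X7R, with a mean of 0.563 tags, 1325 cells with a tag and 2304 without. For CD163 (71 cells with a tag) 4 members passed 1.2-fold, with H2-D1, H2-Aa and Ciita higher and H2-K1 lower, and 39.9% of all genes passed. For CD206 (82 cells with a tag) 3 members passed, with Tap1 and H2-Aa higher and H2-K1 lower, and 36.6% of all genes passed. No member passed for CD61 (background 7.22%), CD357 (5.04%), CD27 (4.54%), P2X7R (3.33%), MERTK (6.68%), CD68 (14.4%), CD106 (4.42%), CD183 (17.5%) or CD201 (4.03%).

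**Figure D5:**
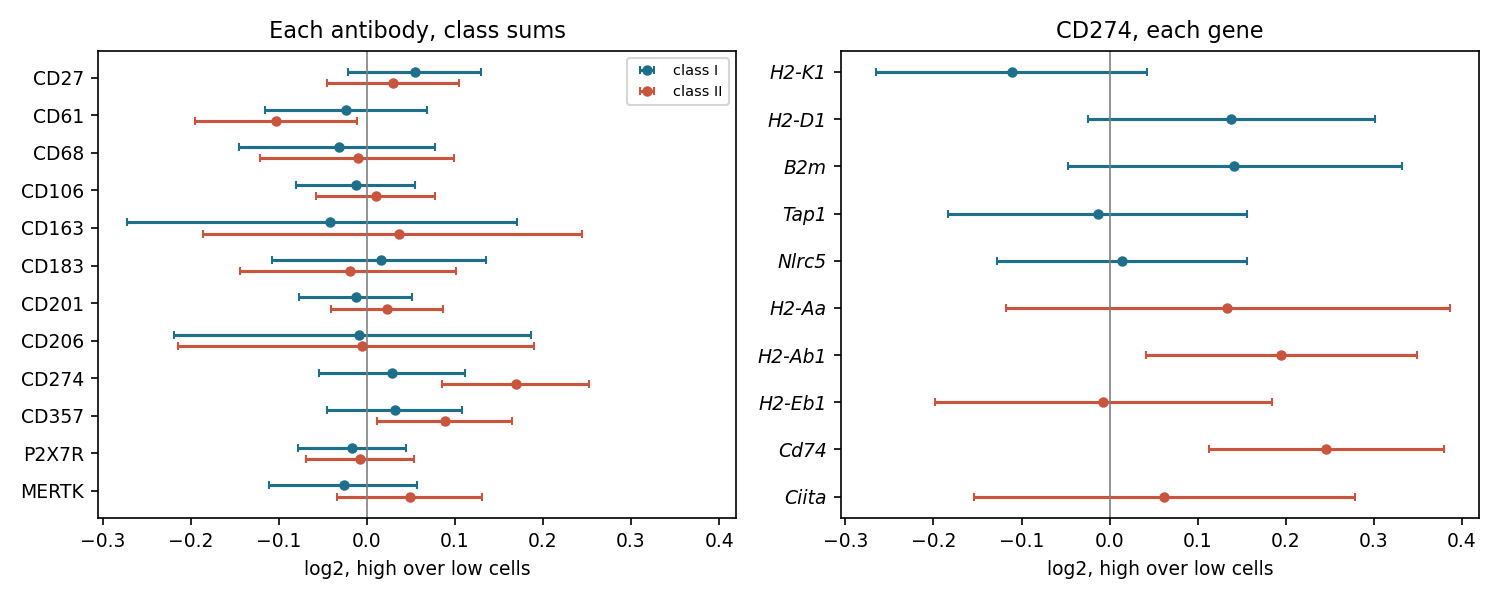
Log2 ratios of fragments over gene windows, high over low cells, with exact 95% counting intervals. Left, class I and class II sums for each of the 12 antibodies; right, each of the 10 genes for CD274. The class II sum for CD274, at 0.17, is the value farthest from 0 among the class sums on the left, and Cd74 and H2-Ab1 are the genes on the right whose intervals leave out 0.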

How the data were processed

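ATAC, RNA and antibody libraries of 1 pool of 24-month LT-HSCs were used. Per the submitters' processing notes the authors ran Cell Ranger ARC 2.0.2 on mm10, which removed duplicate fragments and corrected their ends for the cut of the transposase. What the authors deposited are counts that were not normalized, of fragments, antibody tags and UMIs in each barcode. With a release not given in the sources used here, CITE-seq-Count was run on the antibody reads. The members and gene lists were chosen with earlier results of these data known. All 10 members were named, with the 3 highest and 3 lowest genes of each pathway list. The value of 1 marker gene is not reported here.

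Fragments of the 3629 cells were counted over GENCODE genes of the same build, and each value was divided by window length and nuclear fragments. Log2 ratios had 0.5 added to each count, with exact conditional binomial 95% intervals. High and low cells were the count thresholds nearest to the upper and lower 25%. Poisson intervals were used for levels and Clopper-Pearson intervals for shares of cells. Doublets were not removed. The ratio and its interval were tested on simulated Poisson counts only. These hold counting error alone, so the test cannot show how the intervals hold for real cells. Alternatives changed the tag minimum, cell depth, windows, scaling, antibody scale and thresholds. Counting used numba 0.67.0 and pandas 2.3.3, intervals scipy 1.17.1 and numpy 2.4.6, and plots matplotlib 3.10.9, under Python 3.11.15.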

Additional observations from a re-analysis of the deposited data

How the results depend on the processing

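The class levels were recomputed under 7 alternatives of cells and windows, and the CD274 ratios under 10 of cells, scaling and antibody groups. With gene windows the class I level was 7.47 and the class II level 5.42 FPKM, and the log2 ratio of the classes 0.46. With 500 bp on each side these were 40.9, 19.9 and 1.04. Insertions gave 22.2 and 11.8 per kb, scaled to all insertions, and the annotated start with most fragments gave 13.7 for class II and a log2 ratio of 0.77. At its start with most fragments Ciita, which is not in the class sums, had 2.87 FPKM, against 0.221 at its first. With at least 50 tags the class I level was 23.9. Class I stayed above class II in these 7.

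By CD274, at least 50 tags gave log2 ratios of 0.13 for class I and -0.090 for class II. These came from 363 cells split again among themselves, so their low cells were another group than the CD274-low cells of the main split. The class II ratio was above 0 in the other alternatives. The number of members past 1.2-fold was 1 of the 2 that kept 200 fragments with at least 50 tags (Nlrc5). It was 1 of 9 with promoters only (Cd74). Cd74 was also the 1 of 10 without the deepest 5% of cells, with the centred log ratio, with residual antibody counts and with the highest and lowest 10%. After thinning to 6000 fragments the number was 1 (H2-Ab1), against 0 in the main groups. The share of all genes past 1.2-fold was not computed in these alternatives, so these counts are no result about the members. By the other antibodies, residual counts gave class II ratios of -0.13 (-0.21 to -0.04) for CD68, -0.12 (-0.20 to -0.03) for CD163, -0.14 (-0.22 to -0.05) for CD183, -0.13 (-0.22 to -0.05) for CD206, -0.083 (-0.16 to -0.0006) for P2X7R, -0.075 (-0.16 to 0.009) for CD201 and -0.061 (-0.14 to 0.02) for MERTK. On that scale the low cells of these 7 antibodies had a mean of 30.4 to 36.9 CD274 tags and the high cells 10.8 to 19.7. Of all 217 recomputed values 184 stayed within the interval of the reported value, or equalled it for the number of members. With 1 pool, counting error is a lower limit on the error of every ratio. No paired analysis was possible because each library is 1 sample of 1 pool.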
